A study of Homo sapiens with 6 samples.

Results

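The 7 CXC chemokine genes followed in MDA-MB-231 cells were CXCL1, CXCL2, CXCL3, CXCL5, CXCL6, CXCL8 and CXCL16. They are measured by all probe sets that the platform annotation assigns to exactly 1 of these 7 symbols, which gave 12 of the 54675 probe sets on each array, and 7 of the 19775 genes with a named probe set. The genes were chosen with the difference between LSD1 siRNA and control siRNA in view, so that difference is given below as a description, with no p-value for these 7 genes, and where the calls of the fit over all genes are counted they support nothing about them. MDA-MB-231 is a human breast cancer cell line that lacks the estrogen receptor. Cells received either an siRNA against LSD1 (3 arrays) or a control siRNA (3 arrays). RNA was collected on day 6, after 2 rounds of transfection. The design text calls the 3 arrays of each group biological replicates, all of them of this 1 cell line and 1 siRNA label per group. LSD1, encoded by KDM1A, is a demethylase of lysine 4 of histone H3, and the comparison asks which transcripts differ once it is depleted.

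CXC chemokines are small secreted proteins that direct leukocyte migration through G protein-coupled receptors. CXCL1, CXCL2, CXCL3, CXCL5, CXCL6 and CXCL8 carry a glutamate-leucine-arginine motif before the first cysteines, bind CXCR2 (CXCL6 and CXCL8 also CXCR1) and attract neutrophils. Their genes lie side by side on chromosome 4, are known targets of NF-kappaB, and several of their transcripts are short-lived because of AU-rich elements. CXCL16 differs from the other members: it is a membrane-anchored chemokine encoded on chromosome 17 that lacks this motif, binds CXCR6 and attracts mainly T and NK-type cells. The group is therefore called CXC chemokines here, since attraction of neutrophils is not what CXCL16 is known for.

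KDM1A had signals of 291, 184 and 228 on the LSD1 siRNA arrays, against 2540, 2493 and 2295 on the control arrays, a log2 change of -3.32 ± 0.13 (SE, limma adjusted p = 1.46e-08). Log2 changes are differences of log2(signal + 15), a scale that understates changes of dim probe sets. All 6 arrays had a trimmed mean signal of about 500.1, and arrays of the same group correlated at 0.976 to 0.980 over all probe sets. VIM, CD44, AXL, CAV1 and EGFR, known to be abundant in this line, had mean signals of 3959 or more in both groups, while the estrogen receptor gene ESR1 had 75.7 ± 24.6 with LSD1 siRNA and 59.1 ± 6.65 with control siRNA (SD, n = 3). PGR, CDH1 and ERBB2, also known to be low in this line, had means of 29.5, 129 and 507 with LSD1 siRNA. With control siRNA they had 60.7, 163 and 581, so ERBB2 was not dim. KRT8, also looked at, had 4538 with LSD1 siRNA and 5380 with control siRNA. The ACTB 3' to 5' signal ratio was 1.33 to 1.39 on the LSD1 siRNA arrays and 1.33 to 1.74 on the control arrays, with control replicate 1 the highest.

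The LSD1 siRNA arrays carried several times the control signal for CXCL1, CXCL3 and CXCL8, and for the brightest probe sets of CXCL2 and CXCL5. CXCL16 was also higher, over control signals at percentile 18.5 of all probe sets on average, and CXCL6 stayed dim in both groups. The plot of signals by array shows all 12 probe sets.

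**Figure D1:**
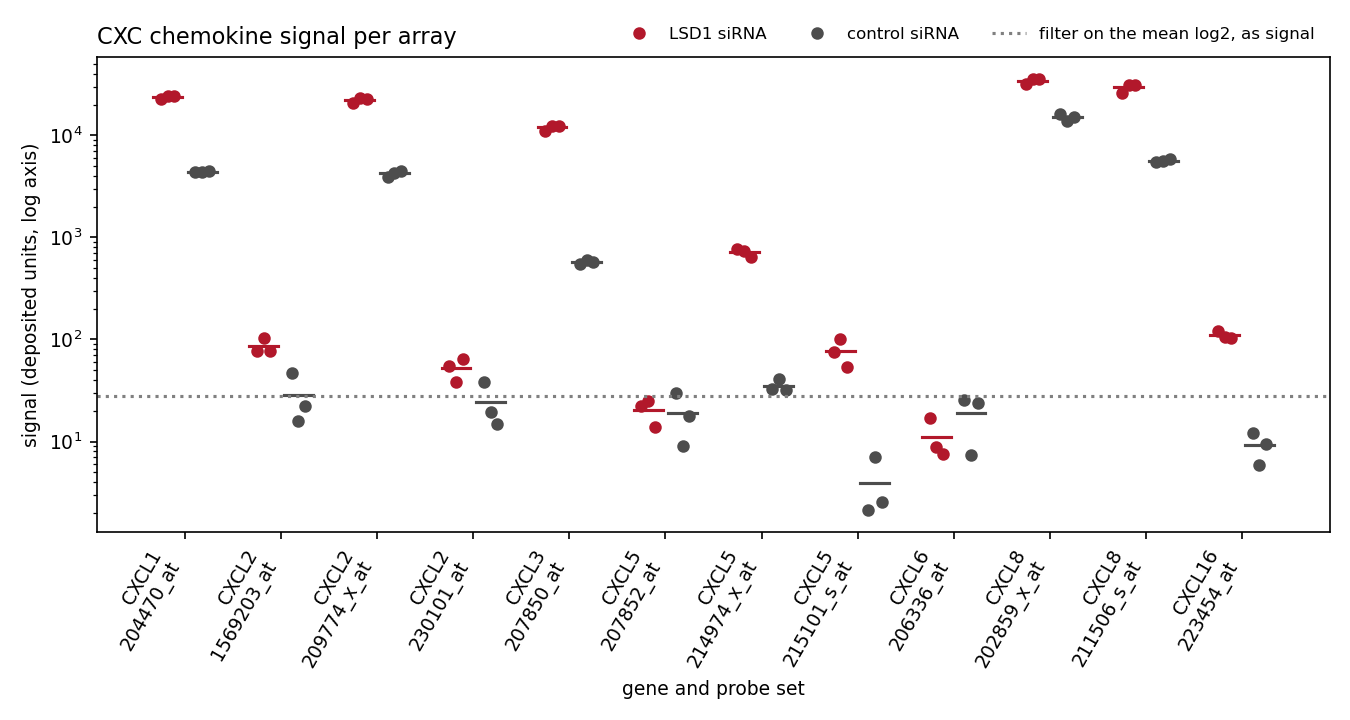
Signal of each of the 12 CXC chemokine probe sets on the 3 LSD1 siRNA arrays (red) and the 3 control siRNA arrays (grey), on a log axis in deposited units. Points are arrays, short lines are group means, and the dotted line marks the filter on the mean of log2(signal + 15) over the 6 arrays, drawn as the signal of 28.0 that it equals. For 10 of the 12 probe sets every LSD1 siRNA array lies above every control array. One CXCL5 set and the CXCL6 set overlap.

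CXCL3 and CXCL1 encode the growth-related chemokines GRO-gamma and GRO-alpha, which act on neutrophils through CXCR2. For CXCL3, which has 1 probe set, signals were 11055, 12368 and 12473 on the LSD1 siRNA arrays, against 549, 597 and 568 on the control arrays. The groups do not overlap, and the mean signal of 11965 ± 790 with LSD1 siRNA was 20.9 times the 572 ± 24.2 with control siRNA (SD, n = 3). The log2 change was 4.35 ± 0.07 (SE), rank 3 among the rises of all 13822 genes tested. CXCL1 also has 1 probe set, with 22814, 24324 and 24383 on the LSD1 siRNA arrays, against 4399, 4343 and 4501 on the control arrays. Its control arrays lay close together, and the mean of 23840 ± 890 with LSD1 siRNA was 5.40 times the 4414 ± 80.0 with control siRNA (SD, n = 3). The log2 change of CXCL1 was 2.43 ± 0.06 (SE).

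CXCL8, the interleukin-8 gene, encodes a neutrophil attractant that binds both CXCR1 and CXCR2, and has 2 probe sets. The set 211506_s_at had 26238, 31264 and 30918 on the LSD1 siRNA arrays, against 5456, 5565 and 5916 on the control arrays, a log2 change of 2.38 ± 0.08 (SE). The set 202859_x_at had 31977, 36061 and 35338 on the LSD1 siRNA arrays, against 16353, 13863 and 15061 on the control arrays. Its log2 change was 1.19 ± 0.08 (SE). Every LSD1 siRNA array was above every control array with both sets, but the size of the change differed: the signal ratio was 5.22 with the first set and 2.28 with the second. On average the second set sat at percentile 99.9 of all signals with LSD1 siRNA and 99.1 with control siRNA. Whether its probes approach saturation or take signal from other transcripts was not tested. The x suffix marks sets that may cross-hybridise.

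CXCL2, which encodes GRO-beta, has 3 probe sets that gave different pictures. The set 209774_x_at had 20625, 23253 and 22891 on the LSD1 siRNA arrays, against 3924, 4275 and 4490 on the control arrays, a log2 change of 2.39 ± 0.07 (SE). The other 2 sets were dim. The set 1569203_at, which represents the gene because it lacks the x suffix, had 77.3, 103 and 76.6 on the LSD1 siRNA arrays, against 47.1, 16.0 and 22.1 on the control arrays, a log2 change of 1.27 ± 0.31 (SE). The set 230101_at had 55.1, 38.7 and 64.2 on the LSD1 siRNA arrays, against 38.2, 19.6 and 15 on the control arrays, a log2 change of 0.81 ± 0.34 (SE). The groups do not overlap with any of the 3 sets, although with 230101_at the lowest LSD1 siRNA array and the highest control array nearly meet. CXCL1, CXCL2 and CXCL3 have similar transcripts, so the bright x-suffix set of CXCL2 may take signal from the others and its separate size is uncertain. Whether it does was not tested.

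CXCL5 and CXCL6 encode ENA-78 and GCP-2, a closely related pair of neutrophil attractants. The CXCL5 set 214974_x_at had 779, 729 and 637 on the LSD1 siRNA arrays, against 32.9, 40.9 and 31.9 on the control arrays, a log2 change of 3.86 ± 0.15 (SE). This set carries the x suffix and may cross-hybridise, so its size is uncertain. Whether it takes signal from other transcripts was not tested. The set 215101_s_at had 74.8, 101 and 54.2 on the LSD1 siRNA arrays, against 2.13, 7.09 and 2.58 on the control arrays. The groups are separated, but the mean of log2(signal + 15) over the 6 arrays was 5.36, just below the filter of 5.43, so its log2 change of 2.25 is given without a fit. The set 207852_at had 22.1, 25.2 and 13.8 on the LSD1 siRNA arrays, against 30.2, 9.14 and 17.6 on the control arrays. That set was dim in both groups, which overlap, with a log2 change of 0.09. For CXCL6 the single set had 16.9, 8.86 and 7.52 on the LSD1 siRNA arrays, against 25.4, 7.35 and 24.0 on the control arrays, and the groups overlap. No difference of CXCL6 was detectable at these signals, which lie below the filter.

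CXCL16 had 120, 107 and 103 on the LSD1 siRNA arrays, against 12, 5.91 and 9.55 on the control arrays. The groups are far apart for a gene this dim, with a log2 change of 2.38 ± 0.28 (SE). Its control signals are below the added constant of 15, so the size depends on that constant: the log2 change was 3.49 with a constant of 1 and 1.30 with a constant of 60. Its control arrays averaged 4.59 on the log2 scale, under the filter of 5.43, so it passed only through the LSD1 siRNA arrays.

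In the fit of 1 probe set per gene, 5 of the 7 members were above the filter, and these 5 were called higher and none lower. Among all 13822 genes tested, 19.8% were called higher. In the fit of single probe sets, 9 of the 12 member sets were above the filter, 8 were called higher and none lower, where 17.0% of 27079 probe sets were called higher. Every LSD1 siRNA array was above every control array for 10 of the 12 member sets, among them all 9 above the filter. The same held for 22.5% of the 27079 probe sets tested, all of which are above the filter. Among all probe sets 17.4% were called lower. Since these genes were chosen from this comparison, nothing is read from the counts. Of the 9 sets, 3 passed the filter only through the LSD1 siRNA arrays: that of CXCL16 and the 2 dim sets of CXCL2, among them the one that represents the gene. The 8 include the brighter sets of CXCL2 and CXCL5 with the x suffix. By size the order of the 5 genes tested was CXCL3, CXCL1, CXCL8, CXCL16 and CXCL2. CXCL5 has no place in it, since the set that represents CXCL5 is below the filter. The bright set of CXCL5 had 20.3 times the control signal, beside 20.9 times for CXCL3. CXCL3 stood apart from CXCL1 by 1.92, with 95% intervals of 4.20 to 4.50 and 2.30 to 2.56, while the intervals of CXCL1, CXCL8 and CXCL16 overlap. CXCL2, at 0.57 to 1.97, overlaps CXCL16 (1.74 to 3.01) in turn. With the brightest probe set whatever its suffix, CXCL2 was at 2.39, CXCL5 at 3.86 and CXCL8 at 1.19, so their places depend on the probe set. Without control replicate 1, which had the highest ACTB ratio, the log2 changes were 2.43 for CXCL1, 4.32 for CXCL3 and 2.35 for CXCL8.

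**Figure D2:**
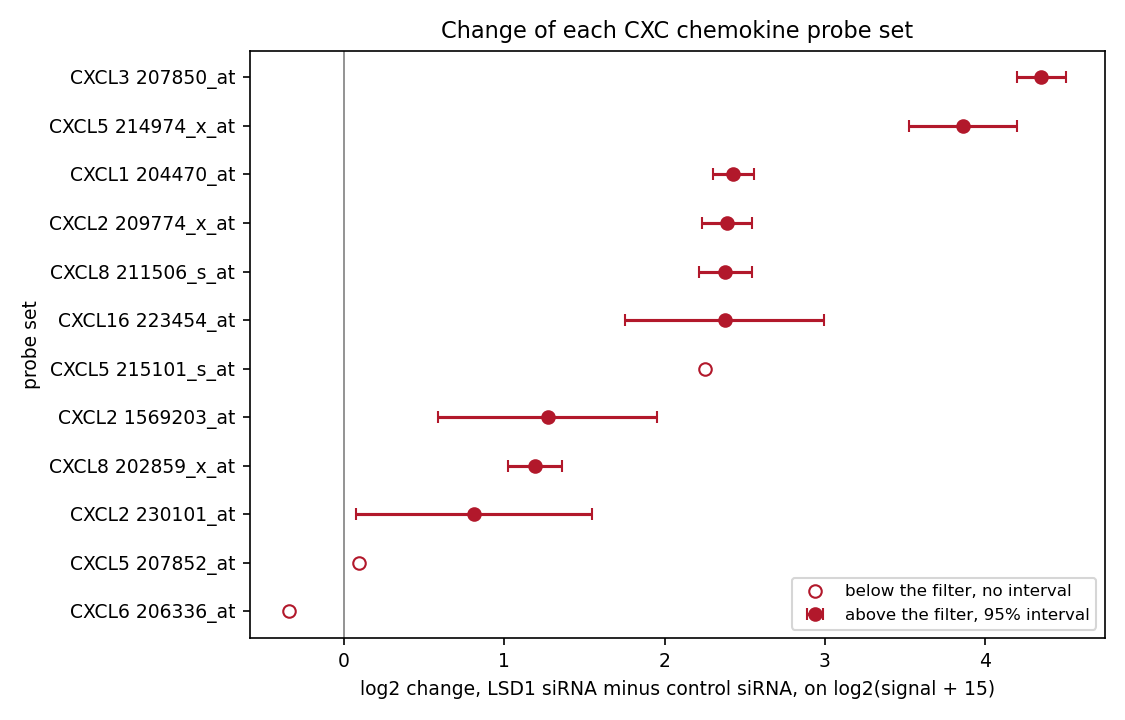
Log2 change (LSD1 siRNA minus control siRNA, on log2(signal + 15)) of each CXC chemokine probe set, ordered by size. Filled points carry the 95% interval of the limma fit, and open points are sets below the filter with no interval. CXCL3 at 4.35 and the x-suffix set of CXCL5 at 3.86 lie above the other sets, CXCL1, the bright CXCL2 set, one CXCL8 set and CXCL16 cluster between 2.38 and 2.43, and CXCL6 is at -0.35.

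The sequences before the start sites show what the 6 genes on chromosome 4 share. RefSeq promoters (GRCh38.p14, 250 bases before to 50 after the start) were matched for 6 of the 7 members, all but CXCL16. The longest run of letters held by all 6 is GGAATTTCC, 9 bases, found by comparing the promoters with each other. Windows of 100 bases around it are printed 5′ to 3′ on the gene's strand, in chromosome order, with this run in capitals:
CXCL8: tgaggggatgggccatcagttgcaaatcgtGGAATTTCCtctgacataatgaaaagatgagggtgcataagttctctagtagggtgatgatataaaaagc
CXCL6: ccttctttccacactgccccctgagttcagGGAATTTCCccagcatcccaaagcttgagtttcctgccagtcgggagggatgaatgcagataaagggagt
CXCL1: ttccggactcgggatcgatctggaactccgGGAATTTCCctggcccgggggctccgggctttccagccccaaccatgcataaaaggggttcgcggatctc
CXCL5: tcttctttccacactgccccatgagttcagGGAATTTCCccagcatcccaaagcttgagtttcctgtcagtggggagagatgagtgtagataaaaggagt
CXCL3: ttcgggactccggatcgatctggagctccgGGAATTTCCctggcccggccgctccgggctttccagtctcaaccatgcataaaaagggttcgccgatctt
CXCL2: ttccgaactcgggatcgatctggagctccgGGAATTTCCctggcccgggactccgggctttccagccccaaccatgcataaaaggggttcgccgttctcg
The window lies at chr4:73740448-73740547 for CXCL8 (plus strand), chr4:73836559-73836658 for CXCL6 (plus strand), chr4:73869285-73869384 for CXCL1 (plus strand). It lies at chr4:73998698-73998797 for CXCL5, chr4:74038698-74038797 for CXCL3, chr4:74099203-74099302 for CXCL2, all of them on the minus strand. The run starts 91 bases before the start site in CXCL8, 89 in CXCL6, 78 in CXCL1, 90 in CXCL5, 78 in CXCL3 and 77 in CXCL2. It is preceded by G in all but CXCL8, where the preceding base is T. The 10 letters are therefore GGGAATTTCC in 5 genes and TGGAATTTCC in CXCL8. Searched on both strands, the 9-base run occurs in 162 of 35116 RefSeq promoters of the same length, or 0.461%. The general NF-kappaB consensus, which overlaps the run, occurs in 5 of these 6 promoters, all but CXCL8, and in 11.3% of all promoters. The consensus as searched begins with GGG, and TGGAATTTCC of CXCL8 misses it by its first base only. This miss does not mean that CXCL8 lacks an NF-kappaB site. CXCL6, dim in both groups, holds the same run as CXCL5. These are matches of letters and were not tested as binding sites.

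Promoters fell into related pairs and triplets. In global alignments CXCL5 and CXCL6 were identical at 83.1% of columns, CXCL1 and CXCL3 at 82.5%, CXCL2 and CXCL3 at 73.8%, and CXCL1 and CXCL2 at 71.9%, whereas CXCL8 was at 45.2% to 48% with each of the others. CXCL5 and CXCL6 share 1 unbroken stretch of 45 bases around the run, and CXCL1, CXCL2 and CXCL3 share 23 bases. The letters CATAAAA start 31 bases before the start site in CXCL1, CXCL2 and CXCL3, and occur in 3.7% of all promoters. CXCL8 instead holds TATAAA at the same distance (11.5% of all promoters) and TGANTCA, the AP-1 site, 137 bases before the start (7.71%). The GC box GGGCGG was found in CXCL1, CXCL3 and CXCL6, and in 45% of all promoters. By base composition CXCL1, CXCL2 and CXCL3 were 64.3% to 66.3% G and C with 22 to 24 CpG, CXCL5 and CXCL6 were 58.7% and 60% with 9 and 8 CpG, and CXCL8 was 39.3% with 4 CpG, beside medians of 58.7% and 14 CpG over all promoters.

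CXCL3 had the largest log2 change on the scale used, and the promoter of CXCL8 is the least similar one. Both whole promoters are given with all matches of these letters in capitals. Those of CXCL3 (chr4:74038640-74038939, minus strand) are the GC box, the shared run and CATAAAA. Those of CXCL8 (chr4:73740319-73740618, plus strand) are the AP-1 site, the shared run and TATAAA.
CXCL3: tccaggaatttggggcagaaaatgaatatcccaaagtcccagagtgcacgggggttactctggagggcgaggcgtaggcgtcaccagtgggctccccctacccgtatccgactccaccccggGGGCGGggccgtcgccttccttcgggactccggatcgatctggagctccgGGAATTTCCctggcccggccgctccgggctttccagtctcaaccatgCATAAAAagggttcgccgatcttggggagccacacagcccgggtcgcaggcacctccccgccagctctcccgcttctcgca
CXCL8: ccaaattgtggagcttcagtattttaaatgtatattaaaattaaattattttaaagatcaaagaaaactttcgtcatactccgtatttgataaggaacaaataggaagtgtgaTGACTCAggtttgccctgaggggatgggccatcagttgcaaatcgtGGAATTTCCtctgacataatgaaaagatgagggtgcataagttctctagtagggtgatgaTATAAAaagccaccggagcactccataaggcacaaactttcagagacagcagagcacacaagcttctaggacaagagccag

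**Figure D3:**
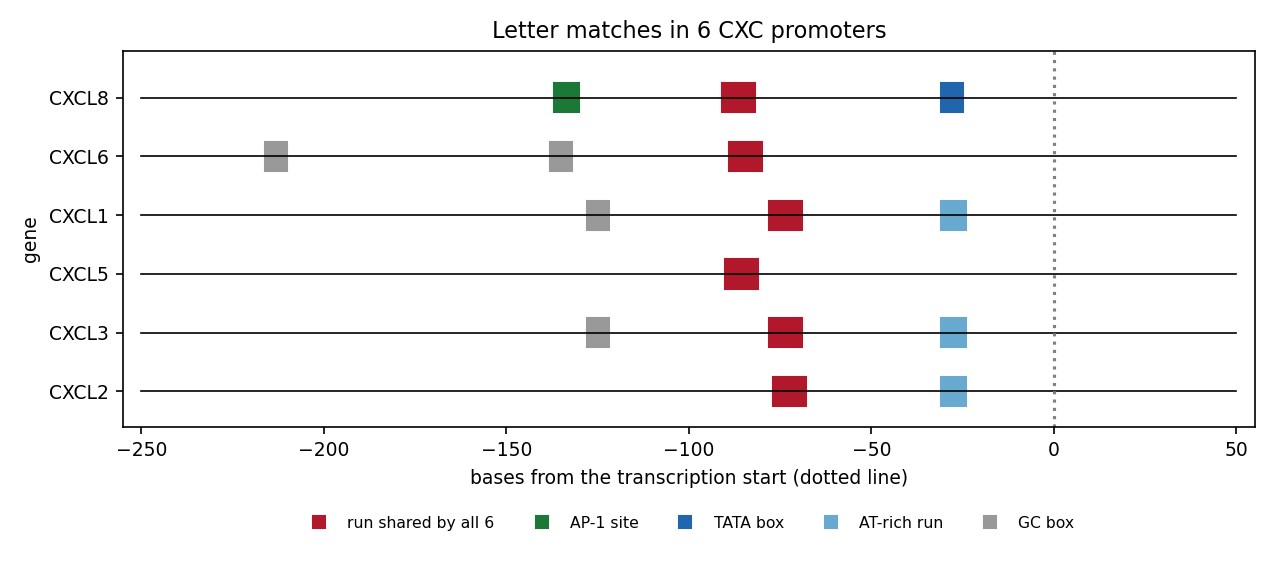
Positions of letter matches in the promoters of 6 CXC chemokine genes, in chromosome order, with distance in bases from the transcription start on the horizontal axis. The run shared by all 6 (red) starts 77 to 91 bases before the start, and the TATAAA box of CXCL8 and the CATAAAA run (labelled AT-rich run) of CXCL1, CXCL2 and CXCL3 start 31 bases before it. CXCL5 and CXCL6 hold neither of these 2.

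Genes next to the cluster were examined by their order on the chromosome. The 13 neighbours on chromosome 4 are the 3 protein-coding genes between CXCL8 and CXCL2 and 5 on each side. Of these, 8 were tested with limma: 5 rose, none fell, and 3 did not pass, where 19.8% of all genes tested were higher and 21.3% lower. Rises took in EREG and BTC, which encode ligands of the EGF receptor family. EREG had 13714 ± 1198 with LSD1 siRNA and 4713 ± 398 with control siRNA (SD, n = 3), a log2 change of 1.54 (limma adjusted p = 9.33e-08), and BTC changed by 1.31 from dimmer values, 139 ± 1.92 with LSD1 siRNA and 47.7 ± 11.9 with control siRNA (SD, n = 3; limma adjusted p = 0.000519). MTHFD2L, a folate enzyme gene, rose by 0.82, AFP, the alpha-fetoprotein gene, by 1.35, and RASSF6 by 0.97, which had an adjusted p of 0.0655 when its probe sets were averaged. ANKRD17 (0.18), AFM (-0.10) and PF4 (0.48) did not pass.

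Inside the cluster, the platelet chemokine genes PF4, PPBP and PF4V1 were dim on all arrays. PF4 had 59.1 ± 27.4 with LSD1 siRNA and 41.7 ± 28.4 with control siRNA, which overlap (SD, n = 3). PPBP had 11.1 ± 8.76 with LSD1 siRNA and 16.4 ± 13.3 with control siRNA, and PF4V1 had 14.6 ± 4.15 with LSD1 siRNA and 3.22 ± 1.93 with control siRNA. PPBP and PF4V1 were below the filter. EPGN and AREG, also neighbours, have no probe set named for 1 gene here. Around CXCL16 on chromosome 17, 3 of 10 neighbours were tested and 1 was called higher, where 19.8% of all genes tested were higher. The proteasome gene PSMB6 rose by 0.21 (limma adjusted p = 0.0465), a call that was lost under 7 of the 16 alternatives, and MED11 (0.15) and PELP1 (-0.21) did not pass.

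**Figure D4:**
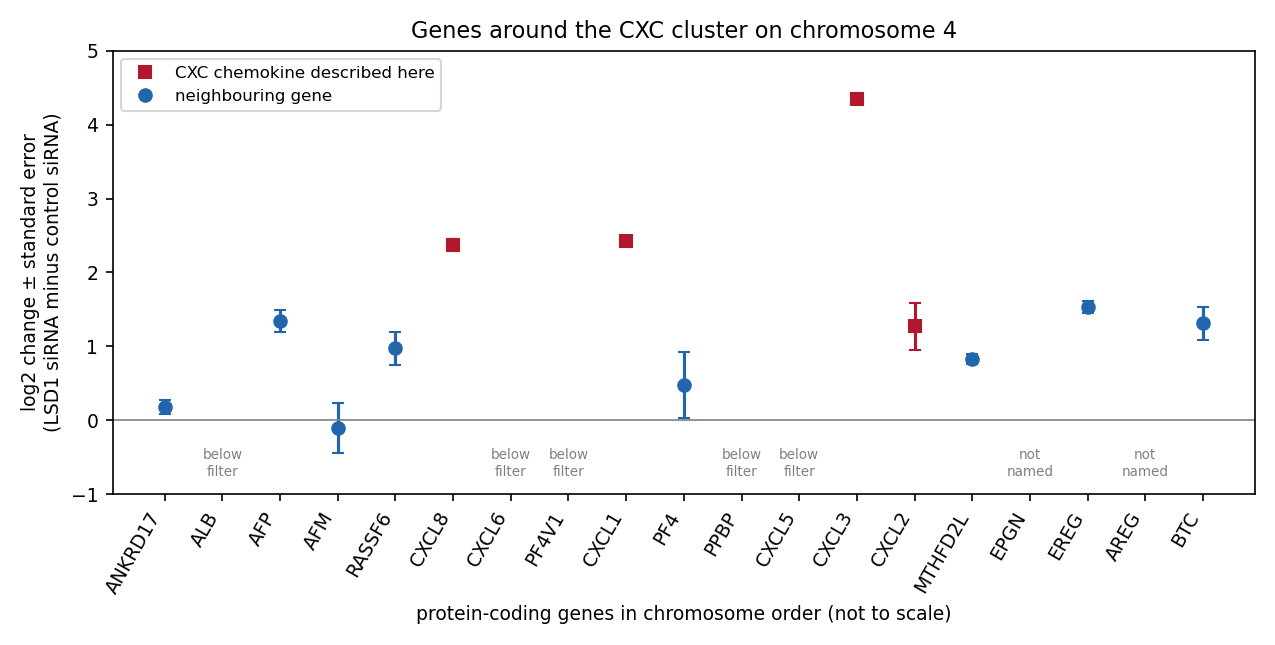
Log2 change with its standard error for the protein-coding genes around the CXC cluster on chromosome 4, in chromosome order and not to scale. Squares are CXC chemokines described here and circles their neighbours. CXCL8, CXCL1 and CXCL3 stand above their neighbours, and EREG at 1.54, AFP at 1.35 and BTC at 1.31 lie on the flanks. CXCL2 is shown by its dim set, and CXCL5 and CXCL6, whose representing sets are below the filter, have no point.

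Chemokine receptor genes were mostly dim in both groups, among them CXCR1, CXCR2 and CXCR6, whose ligands include members described here. CXCR1 had 7.25 ± 3.20 with LSD1 siRNA and 9.63 ± 2.54 with control siRNA, and CXCR2 had 16.9 ± 7.84 with LSD1 siRNA and 18.5 ± 15.5 with control siRNA (SD, n = 3). CXCR6, the receptor of CXCL16, had 29.0 ± 10.6 with LSD1 siRNA and 32.6 ± 24.5 with control siRNA. The scavenging receptor gene ACKR3 had 11.2 ± 11.4 with LSD1 siRNA and 31.7 ± 7.24 with control siRNA. Of 9 receptor genes 7 were below the filter. Of the 2 tested, CXCR4, the receptor of CXCL12, fell to 461 ± 75.2 with LSD1 siRNA, against 654 ± 74.5 with control siRNA, a log2 change of -0.50 (limma adjusted p = 0.00750). None rose, also at an unadjusted p, where 19.8% of all genes tested were called higher and 21.3% lower.

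Other CXC chemokine genes were mostly dim. Of 10, 4 were above the filter, 1 rose and none fell by limma, also at an unadjusted p. Among all genes tested 19.8% were called higher and 21.3% lower. CXCL11, an interferon-induced attractant of T cells, was at 73.9 ± 6.14 with LSD1 siRNA and 36.0 ± 11.9 with control siRNA (SD, n = 3), a log2 change of 0.82 (limma adjusted p = 0.0309). This call was lost without any of LSD1 siRNA replicates 1, 2 and 3 or control replicates 1 and 2 (adjusted p = 0.0662 to 0.0997). CXCL10, which shares its receptor, was at 0.22 (adjusted p = 0.471) and CXCL9 at -0.60 (adjusted p = 0.311). The median over the 4 was 0.35, beside -0.02 over all genes tested.

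Cytokines and receptors known to induce these chemokines rose more often than they fell. Like the other lists, this list was chosen with earlier results of these arrays known, so its counts are not independent evidence of a direction. Of 14 tested, 9 rose and 2 fell, with a median log2 change of 0.76, beside 19.8% of all genes higher, 21.3% lower and the median of -0.02. IL1A and IL1B, which encode the interleukin-1 cytokines, rose by 3.91 and 3.32, and IL1R1, their signalling receptor, rose to 1413 ± 80.8, against 552 ± 22.2 with control siRNA (SD, n = 3), a change of 1.33 (limma adjusted p = 2.19e-07). IL1RAP, the receptor's partner, rose by 2.01, the lipopolysaccharide receptor gene TLR4 by 1.66 and its partner LY96 by 1.79. TNF did not pass, at 37.4 ± 4.72 with LSD1 siRNA and 31.4 ± 20.5 with control siRNA (adjusted p = 0.614). The falls were IL17RA (-0.65) and LIFR (-0.48), receptor genes for interleukin-17 and leukemia inhibitory factor. Without LSD1 siRNA replicate 3 or control replicate 1 the IL17RA call was lost (adjusted p = 0.0686 and 0.0731), and with the mean of all probe sets both were (adjusted p = 0.230 and 0.683). The IL17RA call was also lost without an intensity trend (adjusted p = 0.0641).

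Of the 5 NF-kappaB subunit genes, NFKB2 was called higher, though not under every alternative, and the other 4 did not pass the test. Several genes of NF-kappaB feedback rose. Of 19 pathway genes tested, 8 rose, 1 fell and 10 did not pass, with a median of 0.10, beside 19.8% of all genes higher and 21.3% lower. NFKB2 was at 0.46 (limma adjusted p = 0.0242). Its call was lost when its probe sets were averaged (0.08, adjusted p = 0.761) and without an intensity trend (adjusted p = 0.0684). It was also lost without LSD1 siRNA replicate 2 or 3 or control replicate 2 or 3 (adjusted p = 0.0519 to 0.113). NFKB1 was at -0.12 (adjusted p = 0.175) and RELA at -0.10 (adjusted p = 0.240), with RELB at -0.25 (adjusted p = 0.111) and REL at -0.04 (adjusted p = 0.774). The inhibitor genes NFKBIA (0.60) and TNFAIP3 (0.60), the coactivator gene NFKBIZ (0.89) and the adaptor gene TNIP1 (0.78) rose. NFKBIA had an adjusted p of 0.106 when its probe sets were averaged. IRAK2, a kinase gene of interleukin-1 receptor signalling, rose by 1.12, and its relative IRAK1 fell to 3482 ± 21.7 with LSD1 siRNA, against 7713 ± 634 with control siRNA (SD, n = 3), a change of -1.14 (limma adjusted p = 2.24e-07). Leaving out any 1 array gave 5 to 6 rises, with 5 without LSD1 siRNA replicate 3 or control replicate 3.

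Several genes of AU-rich element binding proteins fell. These proteins bind transcripts such as those of the chemokines and alter their stability. Of 10 tested, 1 rose and 5 fell, with a median of -0.21, where 19.8% of all genes were higher and 21.3% lower. KHSRP, which promotes decay, fell to 2300 ± 39.1 with LSD1 siRNA, against 3838 ± 248 with control siRNA (SD, n = 3), a log2 change of -0.73 (limma adjusted p = 3.91e-06). HNRNPD, also known as AUF1, changed by -0.36, the decay factor gene ZFP36L2 by -0.35, and ELAVL1, which encodes the stabilising protein HuR, by -0.39. TIAL1 was also among the falls, at -0.24. The TIAL1 call was lost without an intensity trend (adjusted p = 0.0637) and with the mean of all probe sets (adjusted p = 0.267). It was also lost without control replicate 2 (adjusted p = 0.0567). ZFP36, the tristetraprolin gene, was at 0.26 (adjusted p = 0.143), and passed without control replicate 3 (0.36, adjusted p = 0.0433). The 1 that rose was ZFP36L1 (0.30), which averaged over its probe sets gave -0.00087.

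Genes that process, shed or bind chemokines moved in both directions. Of 14 tested, 8 rose and 2 fell, with a median of 0.56, where 19.8% of all genes were higher and 21.3% lower. ADAM17, a protease that sheds CXCL16 from the membrane, rose to 2326 ± 43.0, against 1612 ± 43.2 with control siRNA (SD, n = 3), a change of 0.52 (limma adjusted p = 3.15e-05), while ADAM10, the other such protease, was at 0.15 (adjusted p = 0.0743; 0.0498 after quantile normalization). The matrix protease genes MMP1 (2.58), MMP3 (2.06) and ADAMTS1 (1.79) and the cathepsin gene CTSL (0.90) rose. SDC1 (-0.58) and SDC4 (-0.26), which encode heparan sulfate proteoglycans that hold chemokines at the cell surface, fell. The SDC4 call was lost without an intensity trend (adjusted p = 0.0659).

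Other genes that act on neutrophils or on inflammatory recruitment form a separate list. In this list, chosen with earlier results of these arrays known, 12 of 12 tested genes rose and none fell, with a median of 1.80, where 19.8% of all genes were higher. This list is not independent evidence of a direction. CSF3, the granulocyte growth factor gene, changed by 3.62, IL6 by 2.65, CCL20 by 5.50 and the complement gene C3 by 2.99. CFB, a complement gene, was among the rises at 1.20 (adjusted p = 0.0728 when its probe sets were averaged). CCL2, S100A8, S100A9, SELE and VCAM1 were below the filter.

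**Figure D5:**
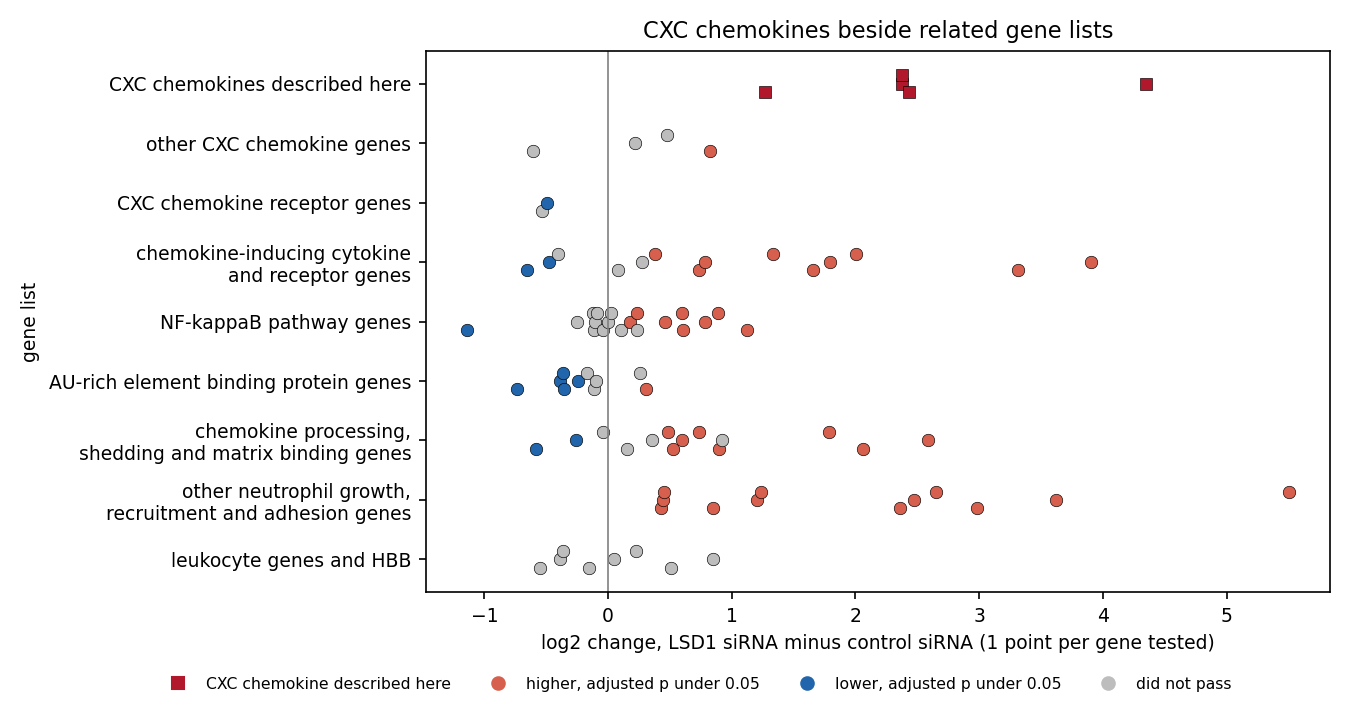
Log2 change of each gene tested (1 point per gene) in the CXC chemokines described here and 8 related lists, with genes called higher or lower by limma at an adjusted p of 0.05 in colour. Medians were 1.80 for other neutrophil-related genes, 0.76 for inducing cytokines and receptors, 0.10 for the NF-kappaB list and -0.21 for AU-rich element binding proteins.

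No gene passed the test in the list of blood cell markers, which holds 15 leukocyte genes and the red-cell hemoglobin gene HBB. Of these 16, 14 had a named probe set and 8 were above the filter. By limma none was called in either direction, where 19.8% of all genes tested were higher and 21.3% lower. At an unadjusted p under 0.05, 1 was higher and none lower. The summed signal of the 14 was 514 to 609 on the LSD1 siRNA arrays and 495 to 629 on the control arrays. PTPRC, the pan-leukocyte gene, and FCGR3B and S100A12, neutrophil genes, were below the filter. HBB was at 0.51 (adjusted p = 0.380). CD3D was at 0.85 (adjusted p = 0.0819) and passed without control replicate 1 (1.24, adjusted p = 0.0107). In bulk RNA a change in the share of cells and a change in RNA per cell cannot be told apart.

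Profiles over the 6 arrays were compared by the root mean square difference of log2 values taken from each gene's control mean. Among the probe sets that represent the genes, CXCL1 and CXCL8 lay 0.07 apart, and CXCL2 and CXCL3 lay 2.21 apart. Other sets of CXCL2 and CXCL8 would give other distances, since their changes differ. Outside the group, the genes most like CXCL1 were AKR1B10 (0.10) and FBXO32 (0.12). Those most like CXCL8 were FBXO32 (0.10) and PTGS2 (0.13). CXCL16 was nearest to ANGPTL4 (0.14) and ENTPD3 (0.15). The dim CXCL2 set was nearest to SOD2 (0.15) and FRK (0.18), and CXCL3 to IL1A (0.33) and SPP1 (0.45). PTGS2, the cyclooxygenase-2 gene, for example averaged 3284 with LSD1 siRNA and 584 with control siRNA (n = 3), a change of 2.47. No p-value is given, since PTGS2 was picked here by its likeness to CXCL8 on these arrays. With 6 arrays in 2 groups these distances mostly follow the size of the group difference.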

How the data were processed

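Total RNA (2.5 ug per array) was measured on 3 Affymetrix arrays with LSD1 siRNA and 3 with control siRNA. The authors deposited linear signal intensity values, with a trimmed mean of 500.1 on every array and no detection calls, made with GCOS, Affymetrix Expression Console 1.1 and MAS5, per the submitters' processing notes. Arrays hold no read depth, so their number limits the precision, and log2 changes had a median SE of 0.11. Scaling hides any change in total RNA. Names came from the platform annotation (41091 probe sets with 1 symbol, 1801 with several), matched to RefSeq by gene identifier (41037 matched). Each gene was represented by its brightest probe set without the x suffix where it had one. The constant 15 added before taking log2 is the signal at the 25th percentile. Probe sets whose mean log2 value lay above the 40th percentile (5.43, equal to a signal of about 28.0) were kept. The test was limma 3.58.1, run in R 4.3.3 (lmFit, eBayes with trend, two-sided) and Benjamini-Hochberg adjustment over 13822 genes or 27079 probe sets. With 3 against 3 arrays an exact permutation test of 1 gene cannot go below p = 0.1, so none is given. Promoters were aligned with Biopython 1.88, and figures drawn with matplotlib 3.10.9.

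The members and lists were chosen with earlier results of these data known. Named are the members, KDM1A, up to 4 genes of each list with the smallest p, 5 neighbours on each side, the 2 most similar genes per member, and a fixed set of receptors, subunits and cytokines. Other list genes were named after their values were seen. Alternatives were constants of 1 and 60, no filter and a 60th percentile filter, quantile normalization, median centring, no trend, a replicate block, the brightest set whatever its suffix, the mean of all sets, and leaving out each array.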

Additional observations from a re-analysis of the deposited data

How the results depend on the processing

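The 9 member probe sets above the filter kept their direction under every alternative that tested them, with log2 changes of 2.41 to 2.46 for CXCL1, 4.25 to 4.41 for CXCL3, 2.33 to 2.46 and 1.13 to 1.29 for the 2 CXCL8 sets, and 3.02 to 4.31 for the bright CXCL5 set. CXCL2 ranged from 2.34 to 2.45 with its bright set and from 0.73 to 1.69 with the set that represents it, and CXCL16 from 1.30 to 3.49. The CXCL2 set 230101_at ranged from 0.42 to 1.17 and was called under 1 of 16 settings. The filter at the 60th percentile left 3 member genes called higher, against 5, because CXCL2 and CXCL16 were no longer tested. Leaving out 1 array gave 5 to 6 member genes and 8 to 10 member probe sets called higher. No filter or the 60th percentile filter left 0 other CXC chemokines higher, and leaving out an array gave 0 to 1. Without an intensity trend 1 processing gene was lower, and with the mean of all probe sets 0 inducing genes were lower and 0 AU-rich element binding genes higher. Leaving out 1 array gave 1 to 2 lower inducing genes, 5 to 6 higher NF-kappaB genes and 0 to 1 higher blood cell markers. For AU-rich element binding genes it gave 1 to 2 higher and 4 to 5 lower. With the mean of all probe sets, EGFR was at 0.11 and ZFP36L1 at -0.00087, both of opposite sign. Of 115 other genes tested, 90 kept their side of the threshold under every alternative and 25 did not under at least 1. The cause was not tested. Replicates of the same number did not visibly deviate together (correlations of -0.01 to 0.02). Whether samples of the same number were prepared together cannot be told from this. With the replicate number as a block, 2733 genes were higher and 2946 lower, 5 member genes were higher, and the KDM1A change was -3.32. Dim signals limit what can be said of CXCL6, CXCL16, 2 CXCL2 sets and 2 CXCL5 sets.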

Other observations

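Genes outside the group whose RefSeq promoter holds the 9-base run shared by the chemokines (GGAATTTCC, either strand) were counted after that run had been seen, with no test. Of 153 gene symbols with the run, 6 are the chemokines, and 67 others were tested on the arrays. Of these 67, 23 (34.3%) were called higher and 2 (2.99%) lower by limma, beside 19.8% higher and 21.3% lower among all genes tested. Their median log2 change was 0.14, beside -0.02 over all genes tested, and 42 did not pass. The highest were TNFRSF9 (1.57), which encodes the costimulatory receptor 4-1BB, LINC02762 (1.49) and MAP3K8 (1.43), a kinase gene. Of the genes in the lists of the report, 8 hold the run: NFKBIZ (0.89), ICAM1 (0.85), CXCL11 (0.82) and NFKBIA (0.60) were called higher, and CXCL10 (0.22), REL (-0.04), NFKBIB (-0.09) and NFKB1 (-0.12) did not pass. The 2 lower genes were DHRS7B (-0.76) and MSANTD3 (-0.21). Across the alternatives 20 to 24 were higher and 2 to 3 lower.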
